A study of Mus musculus with 8 samples.

Results

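The genes of G1 entry are described here: the 3 D-type cyclins (Ccnd1, Ccnd2, Ccnd3), their catalytic partners (Cdk4, Cdk6), the inhibitors Cdkn1b, Cdkn1c, Cdkn2b and Cdkn2c, and the pocket protein gene Rb1. Members were chosen with earlier results of these data known and matched by symbol from the Ensembl identifiers (GRCm38). The table held all 10 among its 55487 genes. All 10 had enough counts to be tested among 15056 genes. RNA was sequenced from sciatic nerves of mice at postnatal day 6, when Schwann cells, the myelin-forming glia of peripheral nerve, divide, differentiate and form myelin. Control libraries (Ctrl, n = 4) have the genotype CNP+/+ Cdk7lox/lox and knockout libraries (CNP-Cdk7cKO, n = 4) the genotype CNPcre/+ Cdk7lox/lox. Both groups therefore carry 2 floxed Cdk7 alleles, and they differ by Cre at 1 Cnp allele, which directs recombination to Schwann cells. The libraries are of whole nerve, so cells without Cre also contribute, and fewer cells of a type cannot be told apart from less RNA per cell. The labels do not say whether each library is 1 animal, so p-values cover only library-to-library spread, which may be technical.

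D cyclins are made in response to mitogens and bind CDK4 or CDK6; the complexes phosphorylate the retinoblastoma protein, which then releases E2F transcription factors and lets a cell start DNA replication. INK4 proteins (the products of Cdkn2b and Cdkn2c) bind the kinases, whereas CIP/KIP proteins (from Cdkn1b and Cdkn1c) bind cyclin-kinase complexes. CDK7, with cyclin H and MAT1, is the kinase that phosphorylates the activation loop of CDK4, CDK6, CDK2 and CDK1, and it also acts on RNA polymerase II within TFIIH. In Schwann cells, cyclin D1 is known to be needed for division after nerve injury, and withdrawal from the cycle precedes myelination. None of these protein events is measured by RNA counts.

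Library totals ran from 16897231 to 21527886 estimated counts. Levels are in CPM, the count of a gene relative to the TMM-scaled size of its library, with every fold change taken as knockout over control. Cdk7 itself went from 21.5 ± 0.696 to 11.6 ± 1.35 CPM (SD, n = 4), without overlap between the groups. Schwann cell markers were present in all libraries, at a summed 113878 to 127859 CPM in the controls and 84159 to 93321 CPM in the knockouts; 5 of the 8 fell and 0 rose by edgeR's quasi-likelihood test (6 had an unadjusted p under 0.05; 5 fell and 0 rose by DESeq2 and by limma-voom). Sex and muscle RNA differed between the groups as well. Xist was at 305 CPM in Ctrl 1 and 281 to 331 CPM in the 4 knockout libraries but at most 0.103 CPM in Ctrl 2, 3 and 4, which alone among the controls had Y-linked counts (94.4 to 107 CPM summed over 4 genes). Skeletal muscle markers summed to 493, 1587, 1018 and 4764 CPM in Ctrl 1 to 4 and to 90.8 to 531 CPM in CNP-Cdk7cKO, and 10 of 10 fell by edgeR (3 by limma-voom).

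Of the 10 genes, 6 rose and 1 fell in the knockout nerves, and 3 did not pass (edgeR quasi-likelihood test, Benjamini-Hochberg adjusted p under 0.05 over all genes). Of all tested genes 11.7% were called: 5.07% of genes were higher and 6.60% lower. The 10 genes were chosen with earlier results of these data known, so this difference is a description and not a test. All 3 D cyclins and both of their kinases were among the rises, with Cdkn2b as the sixth, and Cdkn1c was the fall. The median log2 fold change of the 10 genes was 0.28, against 0.00 over all tested genes. The same 7 genes had groups that did not overlap, as in 18.8% of all tested genes (9.34% wholly higher and 9.51% wholly lower).

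**Figure D1:**
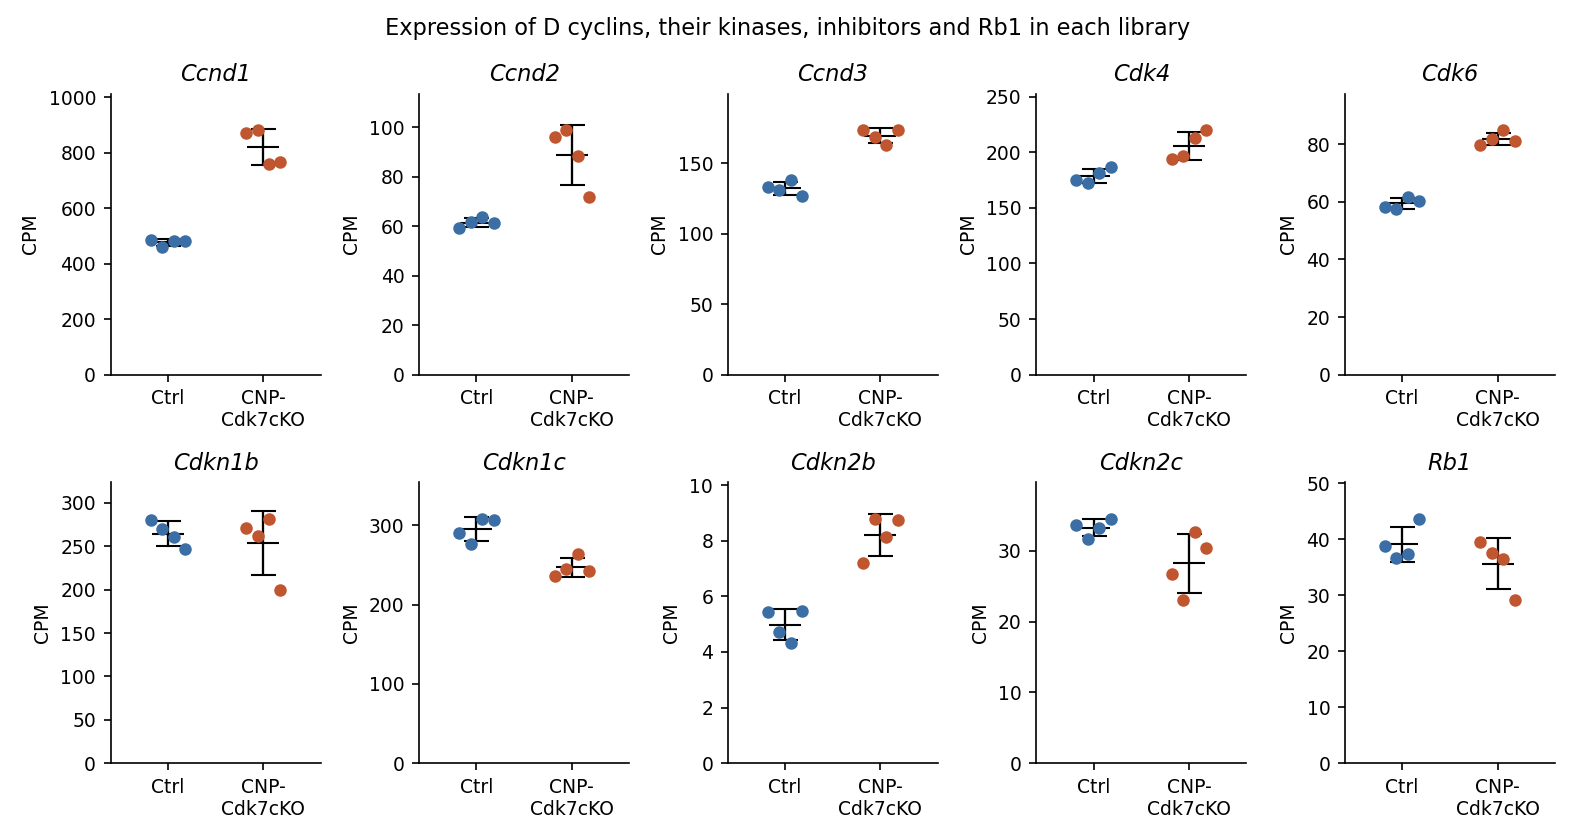
CPM (vertical axes, from 0) of each gene in the 4 Ctrl (blue) and 4 CNP-Cdk7cKO (orange) libraries; each point is 1 library and the black marks are the mean and SD. Ccnd1 points span 459 to 486 CPM for controls and 758 to 881 CPM for knockouts, whereas the groups of Cdkn1b, Cdkn2c and Rb1 overlap.

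Ccnd1, the cyclin most often linked to mitogen signalling, had the largest log2 fold change of the 10 genes in the fit of all libraries, within the error of that of Cdkn2b (0.72 ± 0.12). Without CNP-Cdk7cKO 1 their order turned (0.75 for Ccnd1 and 0.78 for Cdkn2b). It lies on chromosome 7 from 144929931 to 144939925 (GRCm38, minus strand). Ccnd1 measured 486, 459, 479.9 and 479.7 CPM in the controls, in order of number, and 871, 881, 758 and 766 CPM in the knockouts. Every knockout library was above every control, and the knockout libraries were spread more widely than the controls. The means were 476 ± 11.7 and 819 ± 65.8 CPM (SD, n = 4), a 1.72-fold difference (log2 fold change 0.78 ± 0.06 SE, adjusted p = 3.95e-05 by edgeR).

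Ccnd2 (chromosome 6, 127125162 to 127152193, minus strand), a D cyclin with a more restricted tissue pattern, also rose. It measured 59.1, 61.8, 63.6 and 61.5 CPM in the controls, in order of number, and 96.1, 98.8, 88.3 and 71.8 CPM in the knockouts. CNP-Cdk7cKO 4 lay closest to the controls and still above them. The log2 fold change was 0.53 ± 0.09 (edgeR adjusted p = 0.00325). For Ccnd3 (chromosome 17, 47505051 to 47599691, plus strand), a D cyclin that often persists in differentiating cells, the control values were 133, 131, 138 and 127 CPM and the knockout values 173, 169, 163 and 173 CPM. These groups were tight and well apart (132 ± 4.76 against 169 ± 5.12 CPM, SD, n = 4; log2 fold change 0.36 ± 0.04, adjusted p = 0.00072 by edgeR).

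Levels were also taken per kb of annotated exon, with all exons of a gene joined. By that measure, D cyclin RNA was mostly Ccnd1 in both groups. The 3 genes summed to 123 ± 2.61 CPM per kb in Ctrl and 203 ± 15.2 CPM per kb in CNP-Cdk7cKO (SD, n = 4), a ratio of 1.65. Ccnd1 made up 82.4% of that sum in Ctrl (81.9 to 82.9% by library) and 85.8% in CNP-Cdk7cKO (85.2 to 86.3%). The share of Ccnd3 went from 12.3% (11.8 to 12.6%) to 9.56% (8.87 to 10.4%), although its own level was higher. These shares are a description, and depend on exon lengths from the GENCODE M21 annotation. The annotation release used for the counts is not given in the sources used here. Joined lengths were 4.709 kb for Ccnd1, 9.409 kb for Ccnd2 and 8.775 kb for Ccnd3. Such lengths can exceed those of the transcripts in use, so levels per kb compare genes only roughly.

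Both kinases rose, by a log2 fold change of 0.46 for Cdk6 and 0.20 for Cdk4; the difference between these was not tested. Cdk6 (chromosome 5, 3341485 to 3531008, plus strand) measured 58.3, 57.7, 61.7 and 60.5 CPM in the controls, in order of number, and 79.6, 81.7, 84.9 and 81.3 CPM in the knockouts. Its knockout values were the most uniform of the 10 genes, with a coefficient of variation of 2.70%. The log2 fold change was 0.46 ± 0.04 (edgeR adjusted p = 0.000157). Cdk4 (chromosome 10, 127063534 to 127067920, plus strand) measured 175, 173, 182 and 187 CPM in the controls and 194, 197, 213 and 219.9 CPM in the knockouts, a gap of less than 10 CPM between the nearest libraries of the groups. Its log2 fold change was 0.20 ± 0.05 (edgeR adjusted p = 0.0282). That call was the least firm of the 7: it was lost without Ctrl 1, Ctrl 2, Ctrl 3 or CNP-Cdk7cKO 3 (adjusted p from 0.0611 to 0.0864). Per kb of joined exon, Cdk4 made up 92.8% of the pair's sum in Ctrl and 91.5% in CNP-Cdk7cKO. Cdk6 has 13.989 kb of joined exon and Cdk4 3.249 kb, so that share is rough too.

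The promoters of Cdk4 and Cdkn2b, both genes that rose, are shown for the words they hold: CACGTG in repeats and TGACGTCA. RefSeq promoter windows (GRCm38.p6) were found for 6 of the 10 genes; Ccnd1, Ccnd2, Cdkn1c and Rb1 had no entry. The 250 bases before each start were searched on both strands for CACGTG (the E box bound by the MYC family and related factors), TGACGTCA (the cAMP response element), TGAGTCA (an AP-1 site), GGGCGG (a GC box) and the E2F-like words TTTCGCGC, TTTGGCGC and TTTCCCGC. No match overlapped another motif in the windows printed. Both are written 5′ to 3′ on the gene's own strand, the first from chr10:127063285-127063534 (plus strand) and the second from chr4:89311033-89311282 (minus strand), with capitals for CACGTG in Cdk4 and TGACGTCA in Cdkn2b:
Cdk4: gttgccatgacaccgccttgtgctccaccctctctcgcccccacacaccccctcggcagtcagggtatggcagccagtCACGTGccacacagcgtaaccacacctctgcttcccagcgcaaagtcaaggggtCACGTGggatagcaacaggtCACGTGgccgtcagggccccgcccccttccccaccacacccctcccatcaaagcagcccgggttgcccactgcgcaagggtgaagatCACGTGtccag
Cdkn2b: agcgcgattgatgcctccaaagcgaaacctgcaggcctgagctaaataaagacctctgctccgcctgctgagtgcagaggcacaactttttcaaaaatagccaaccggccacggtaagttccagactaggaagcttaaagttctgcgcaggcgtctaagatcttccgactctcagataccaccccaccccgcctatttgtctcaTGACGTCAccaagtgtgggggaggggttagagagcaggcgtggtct

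The Cdk4 window held CACGTG 4 times, starting 172, 118, 98 and 11 bases before the start. Of 32851 windows of this length, 6.02% held CACGTG at least once and 7 (0.0213%) held it at least 4 times. The cut of 4 is the count in the Cdk4 window itself, so this share is a description and not a test. The Cdk6 window held 1 CACGTG, 220 bases before the start, and was the other member window with this word. GGGCGG was found in 5 of the 8 windows of these genes and in 32.7% of all windows. The Cdkn2b window held 1 TGACGTCA, 46 bases before the start, a word found in 1.55% of windows. None of the 3 E2F-like words and no TGAGTCA was found in the 8 windows of these genes; 1.53% and 4.46% of all windows hold them. A match is a description of letters, not of a bound site. Whether a MYC family factor acts on these genes was not tested. The Mycn call that follows ended with Xist or muscle markers in the model. Among the MYC family genes, Mycn rose, with 27.1 ± 0.768 CPM in control and 33.6 ± 2.01 CPM in knockout nerves (SD, n = 4; log2 fold change 0.31 ± 0.06, adjusted p = 0.00571 by edgeR), while Myc measured 11.4 and 11.9 CPM and did not pass (adjusted p = 0.802; named after its value was seen).

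Of the INK4 inhibitors, Cdkn2b rose and Cdkn2c did not pass. Cdkn2b (chromosome 4, 89306299 to 89311039, minus strand), which encodes p15 and is a classical target of TGF-beta signalling, was the least abundant of the 10 genes in counts. It had 89 to 112 estimated counts in the Ctrl libraries and 139 to 182 in the CNP-Cdk7cKO libraries, or 5.45, 4.71, 4.32 and 5.46 CPM against 7.19, 8.80, 8.13 and 8.73 CPM. The groups did not overlap, and the fold was 1.65 (log2 fold change 0.72 ± 0.12, adjusted p = 0.00401 by edgeR). Cdkn2c (chromosome 4, 109660876 to 109667189, minus strand), which encodes p18, measured 33.7, 31.6, 33.2 and 34.5 CPM in the controls and 26.7, 23.1, 32.7 and 30.3 CPM in the knockouts. One knockout library lay inside the control range, and the log2 fold change of -0.24 ± 0.09 did not pass (edgeR adjusted p = 0.13); without CNP-Cdk7cKO 3 it was -0.32 and passed (adjusted p = 0.0493), and without CNP-Cdk7cKO 2 it was -0.15 (adjusted p = 0.236). With muscle markers in the model it was -0.43 (adjusted p = 0.182).

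Cdkn1c fell, and Cdkn1b did not pass. Cdkn1c (chromosome 7, 143458339 to 143461050, minus strand), an imprinted gene that encodes p57 and is known to restrain Schwann cell differentiation, measured 290.0, 276, 308 and 306 CPM in the controls and 237, 244, 264 and 243 CPM in the knockouts. All knockout libraries were below all controls (log2 fold change -0.26 ± 0.05, adjusted p = 0.00798 by edgeR). Cdkn1b (chromosome 6, 134920401 to 134925513, plus strand), which encodes p27, measured 281, 270.1, 261 and 247 CPM in the controls and 272, 262, 282 and 200.2 CPM in the knockouts. Of its knockout libraries 2 lay inside the control range, CNP-Cdk7cKO 3 just above it and CNP-Cdk7cKO 4 well below (log2 fold change -0.06 ± 0.09, adjusted p = 0.733 by edgeR). Per kb, Cdkn1b and Cdkn1c together went from 203 ± 5.74 to 177 ± 11.5 CPM per kb, whereas Cdkn2b and Cdkn2c together were at 16.0 ± 0.774 and 16.4 ± 1.61 CPM per kb (SD, n = 4; no test).

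Of 7 genes listed as neighbours of Cdkn1c in its imprinted domain, 6 were tested (Phlda2 was not). One rose and 0 fell by edgeR (1 had an unadjusted p under 0.05; 0 fell by DESeq2 and by limma-voom). The one that rose was Cd81, a tetraspanin gene, from 415 ± 12.1 to 483 ± 8.82 CPM (log2 fold change 0.22 ± 0.04, adjusted p = 0.00429 by edgeR); with Xist or muscle markers in the model it did not pass (adjusted p = 0.211 and 0.213). Kcnq1ot1, the long RNA of the same domain, measured 10.1 and 9.84 CPM (named after its value was seen).

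Rb1 (chromosome 14, 73183673 to 73325822, minus strand), the substrate of the D cyclin kinases, measured 38.7, 36.6, 37.3 and 43.7 CPM in the controls and 39.5, 37.5, 36.5 and 29.1 CPM in the knockouts. The groups overlapped, with CNP-Cdk7cKO 4 below the other libraries (log2 fold change -0.13 ± 0.09, adjusted p = 0.396 by edgeR). Genes on the other strand share exon bases with several members. The shared bases are 1100 bases for Ccnd1 and Lto1, 361 for Ccnd3 and Bysl, 641 for Cdk4 and Tspan31, 625 for Cdkn1c and Gm44732, 488 for Rb1 and Rcbtb2, and 408 for Rb1 and Lpar6. Antisense genes of Ccnd2 (Gm43126 and 9330179D12Rik) and Cdk6 (Gm17590) share 372, 368 and 368 bases, with 2, 26 and 0 counts over all libraries. The kit marks strand, but whether counting used it is not given in the sources used here, so reads in the shared bases are uncertain. Lto1 had 3.13% of the counts of Ccnd1, Tspan31 49.4% of those of Cdk4, and Rcbtb2 98.0% of those of Rb1; Bysl had 18.4% of those of Ccnd3 and rose too (log2 fold change 0.31 ± 0.06, adjusted p = 0.0105 by edgeR).

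**Figure D2:**
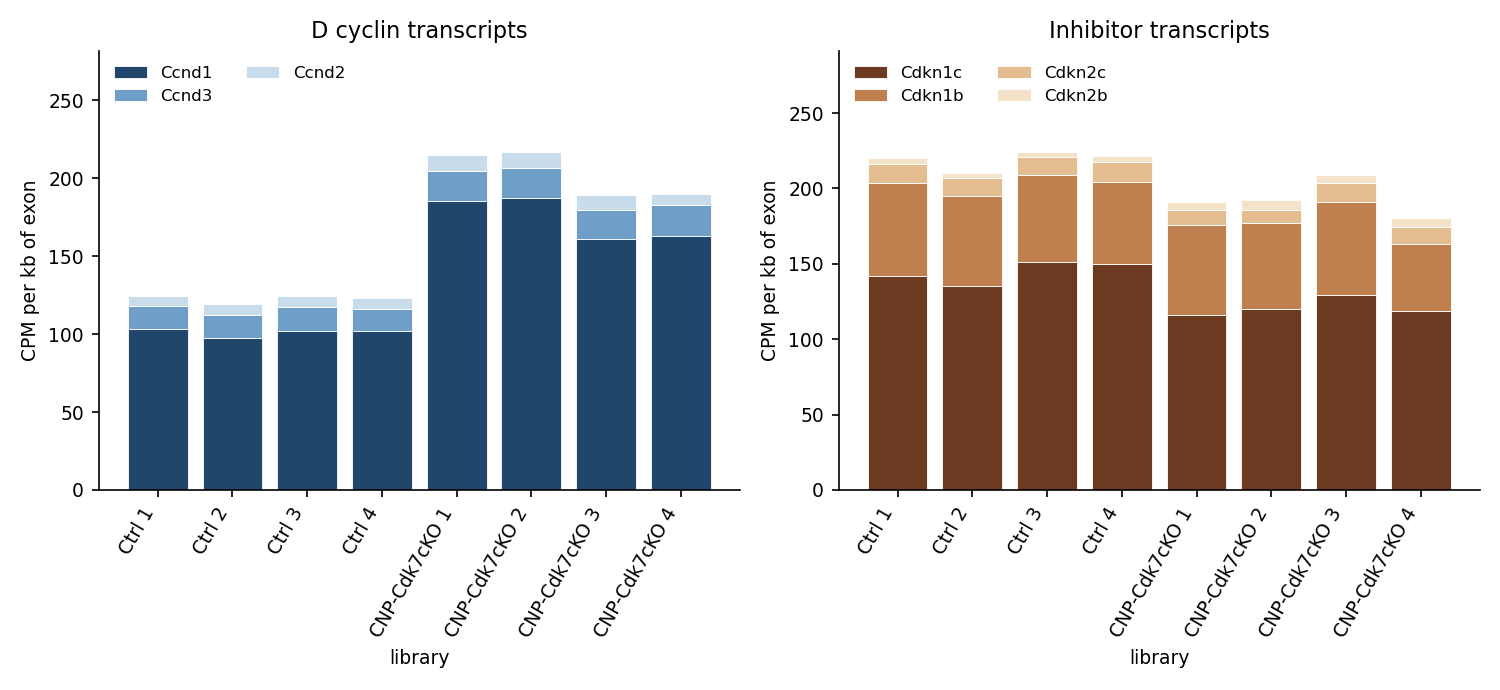
Stacked bars of CPM per kb of annotated exon (vertical axes, from 0) in each of the 8 libraries, for the D cyclins on the left and the 4 inhibitors on the right. The D cyclin sum is 119 to 125 CPM per kb in Ctrl and 189 to 217 CPM per kb in CNP-Cdk7cKO, mostly Ccnd1, whereas Cdkn1c is lower in each knockout library.

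By level per kb, which compares genes only roughly, Cdkn1c ranked highest in Ctrl (145 ± 7.33 CPM per kb, SD, n = 4), followed by Ccnd1 (101 ± 2.48). Cdkn1b (58.1 ± 3.14) and Cdk4 (55.1 ± 1.99) came next, with overlapping libraries. Ccnd3 (15.1 ± 0.542) and Cdkn2c (12.4 ± 0.458) were lower, and Ccnd2 (6.54 ± 0.195) and Rb1 (6.50 ± 0.531) overlapped below them. Cdk6 (4.25 ± 0.134) and Cdkn2b (3.59 ± 0.408) ranked last. In CNP-Cdk7cKO, Ccnd1 (174 ± 14.0) stood above Cdkn1c (121 ± 5.73) in every library. At the low end Rb1, Cdkn2b and Cdk6 were at 5.93 ± 0.750, 5.91 ± 0.536 and 5.85 ± 0.158 CPM per kb and did not differ beyond their spread.

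The fits were repeated with sex and muscle RNA taken into account; their part in the results was not otherwise tested. With Ctrl 1 as the lone control against the 4 knockout libraries, so that all 5 carry Xist and the spread is taken from the knockout group, all 10 log2 fold changes kept their sign. In that fit Ccnd1 (0.75, edgeR adjusted p = 0.022) and Cdk6 (0.49, adjusted p = 0.0409) passed. The other 5 calls ended: Ccnd2 (0.58, adjusted p = 0.172), Ccnd3 (0.35, 0.11), Cdk4 (0.23, 0.34), Cdkn2b (0.59, 0.254) and Cdkn1c (-0.24, 0.269). With Xist fitted as a covariate, which rests on the same single control library and is no separate support, the same 2 genes passed (log2 fold change 0.75 and 0.49, adjusted p = 0.00509 and 0.0134). With summed muscle markers in the model, Ccnd1 (0.87), Ccnd2 (0.65), Ccnd3 (0.33) and Cdk6 (0.45) passed, and Cdk4, Cdkn2b and Cdkn1c did not (adjusted p = 0.375, 0.0834 and 0.146).

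**Figure D3:**
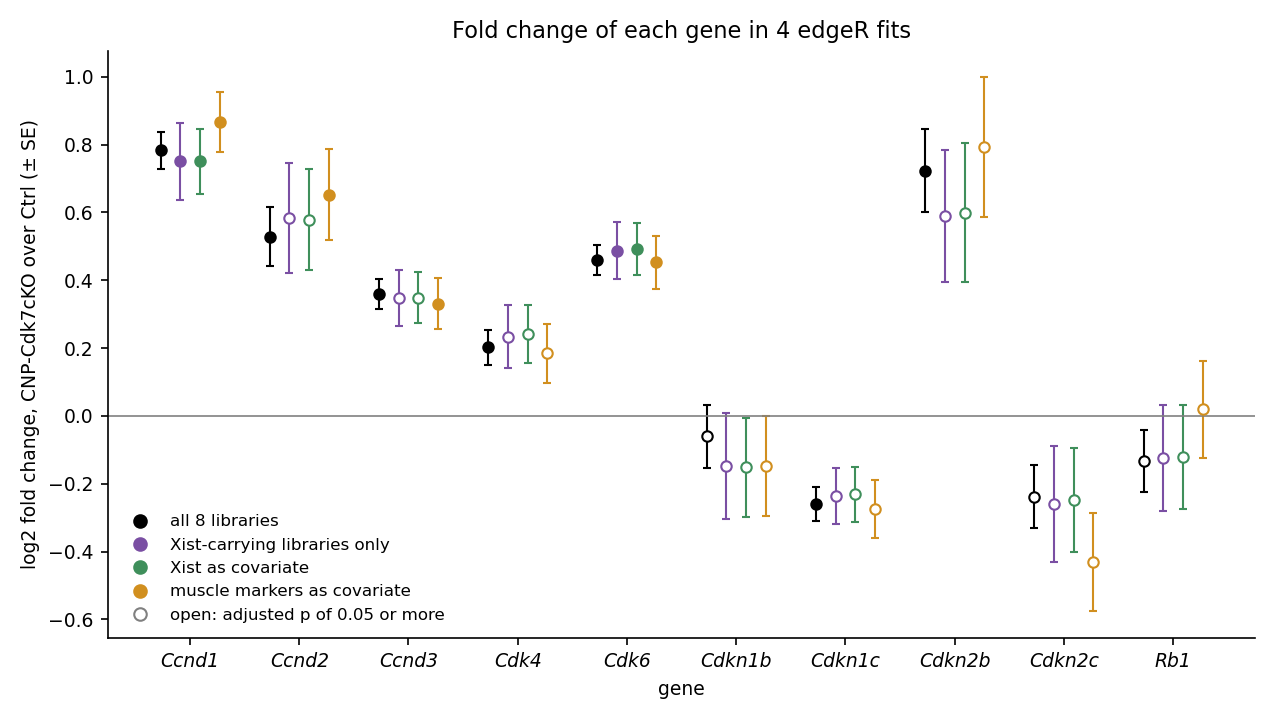
Log2 fold change (vertical axis, ± SE) of each gene in 4 edgeR fits; filled points have an adjusted p under 0.05 and open points do not. Ccnd1 and Cdk6 are filled in all 4 fits, and Cdk4, Cdkn1c and Cdkn2b are filled in the fit of all 8 libraries and open in the other 3.

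Markers of other cells were present too. Fibroblast and perineurial markers summed to 16797 to 19211 CPM in the controls and 19753 to 22834 CPM in the knockouts, with 2 of 7 higher and 0 lower by edgeR (5 at an unadjusted p under 0.05); DESeq2 gave 3 higher and 1 lower, and limma-voom 4 higher and 1 lower. Macrophage markers summed to 260.4 to 336 CPM in the controls and 307 to 399 CPM in the knockouts, with 2 of 6 higher and 0 lower by edgeR (5 at an unadjusted p under 0.05; also 2 and 0 by DESeq2 and by limma-voom). No endothelial or mural marker rose by edgeR, DESeq2 or limma-voom, and of 7 markers 1 fell by edgeR, 2 by DESeq2 and 2 by limma-voom (2 at an unadjusted p under 0.05). Erythroid (5) and adipocyte (2 of 4 tested) markers gave 0 calls by edgeR, DESeq2 or limma-voom, and 0 had an unadjusted p under 0.05. None of the listed markers was at 0 in every library. Whether these cells contribute to the levels of the D cyclins was not tested.

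Downstream of the D cyclin kinases, genes of DNA replication and mitosis did not pass. Of 17 E2F target genes of S phase 0 were called by edgeR, DESeq2 or limma-voom (1 at an unadjusted p under 0.05), with log2 fold changes from -0.10 (Ccna2) to 0.26 (Tyms) and a median of 0.06. Their log2 fold changes were positive for 14 and negative for 3, against 7638 and 7414 of all tested genes. Pcna, the replication clamp gene, measured 72.2 ± 3.18 CPM in the controls and 76.2 ± 8.18 CPM in the knockouts, and the ribonucleotide reductase gene Rrm1 51.4 ± 2.99 and 56.3 ± 5.43 CPM (SD, n = 4). Of 10 genes of G2 and mitosis 0 were called by the same 3 tools (1 at an unadjusted p under 0.05), with a median of 0.02. With 11.7% of all tested genes called by edgeR, lists this short would hold few calls. The lack of calls does not show that these genes were unchanged. The division marker Mki67 measured 67.7, 69.9, 81.8 and 74.6 CPM in the controls and 56.6, 47.0, 75.6 and 71.5 CPM in the knockouts. Those groups overlapped, as did those of Top2a (65.3 ± 4.45 and 65.0 ± 11.2 CPM).

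The E2F factors and their DP partners had 1 call among 10 genes, near the 11.7% called over all tested genes. Tfdp2, a dimer partner of E2F, fell (log2 fold change -0.21 ± 0.06, adjusted p = 0.042 by edgeR) but was not called by DESeq2 or limma-voom (adjusted p = 0.065 and 0.0719), and the call ended in 6 of the 8 fits with 1 library left out. At the next step of the cycle, Cdk2, the partner of E cyclins, fell while its cyclins did not pass. Cdk2 measured 46.7, 49.0, 48.3 and 49.6 CPM in the controls and 33.4, 34.5, 43.3 and 40.9 CPM in the knockouts. The knockout libraries were all lower and more widely spread (log2 fold change -0.35 ± 0.08, adjusted p = 0.018 by edgeR); the call ended without Ctrl 2 (adjusted p = 0.0519) or CNP-Cdk7cKO 2 (0.0501), and with Xist (0.319) or muscle markers (0.12) in the model. Ccne1 measured 9.02 and 10.1 CPM, Ccne2 6.26 and 6.33 CPM, and Cdc25a, whose phosphatase activates CDK2, 16.5 and 16.8 CPM in Ctrl and CNP-Cdk7cKO.

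**Figure D4:**
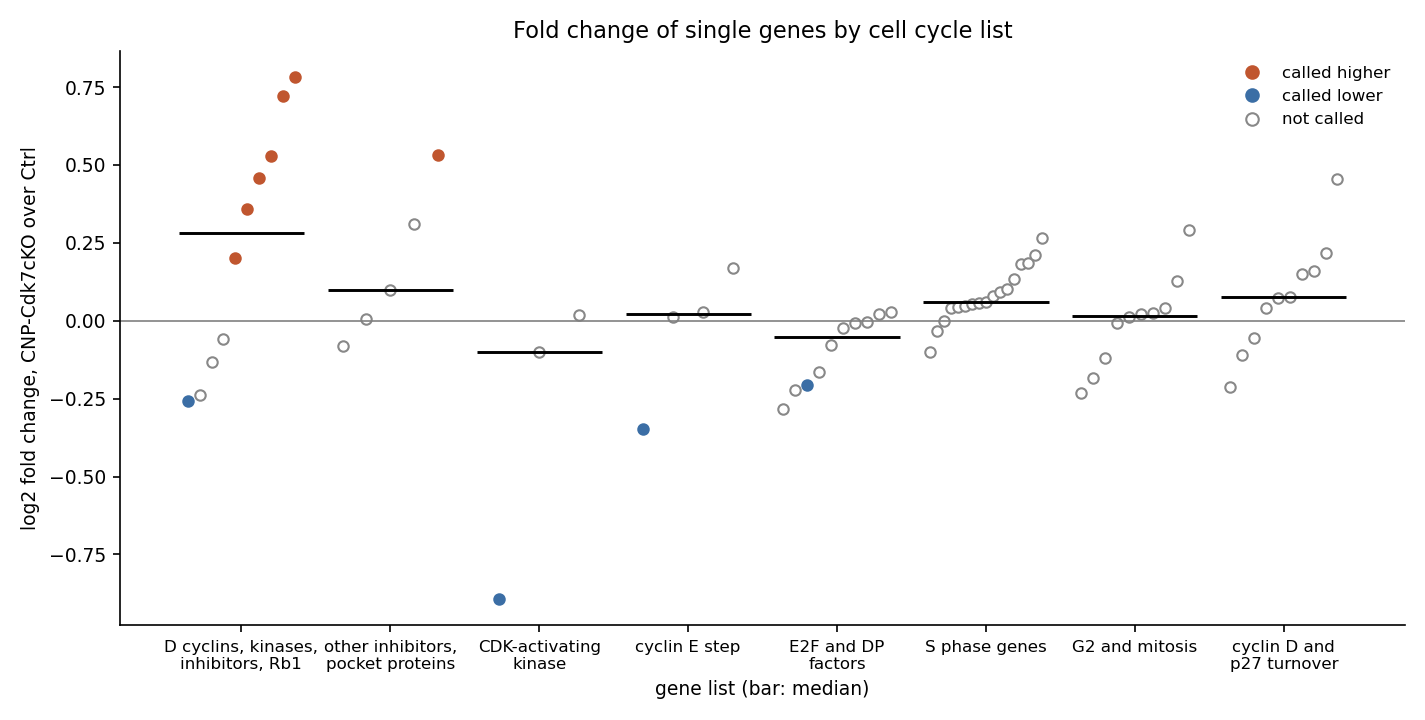
Log2 fold change (vertical axis) of single genes in 8 cell cycle lists; each point is 1 gene, filled where called by edgeR, and the bar is the list's median. The list of D cyclins, kinases, inhibitors and Rb1 has a median of 0.28, and the lists of S phase and of mitosis genes hold open points only.

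Among the other inhibitors and pocket proteins, 1 of 5 rose and 0 fell by edgeR (1 at an unadjusted p under 0.05; 0 fell by DESeq2 and by limma-voom). Cdkn1a, which encodes the p53-induced inhibitor p21, was that gene, and measured 457, 408, 422 and 369.9 CPM in the controls against 629, 673, 507 and 589 CPM in the knockouts (log2 fold change 0.53 ± 0.09, adjusted p = 0.00299 by edgeR). Its call ended with muscle markers (adjusted p = 0.0791) or Xist (0.185) in the model. The pocket protein genes Rbl1 and Rbl2 measured 12.1 and 27.6 CPM in the controls and 13.0 and 26.0 CPM in the knockouts. Cdkn2d, the gene of p19, measured 23.6 and 23.7 CPM, and Cdkn2a, which lies beside Cdkn2b, 1.68 ± 0.408 and 2.07 ± 0.651 CPM (SD, n = 4); neither passed. In the complex of CDK7 itself, the cyclin H gene Ccnh was at 18.1 CPM in control and 16.9 CPM in knockout nerves, and Mnat1 at 12.9 and 13.1 CPM; neither passed.

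Genes for the turnover of D cyclins and p27 gave 0 calls among 10 by edgeR, DESeq2 or limma-voom (1 at an unadjusted p under 0.05). Rnf123, part of a ubiquitin ligase for p27, measured 76.7 ± 10.9 and 66.2 ± 11.5 CPM, and Gsk3b, a kinase that marks cyclin D1 for export and degradation, 69.5 ± 1.89 and 64.5 ± 7.46 CPM (SD, n = 4). Of 13 tested regulators known to act on members of the pathway, 2 rose and 3 fell by edgeR. Over all tested genes 5.07% were higher and 6.60% lower. The list was chosen with earlier results of these data known, so this difference is a description and not a test. DESeq2 gave 2 higher and 3 lower, and limma-voom 2 higher and 2 lower, without Foxo1 (adjusted p = 0.0778). Mycn, given above, and Smad3, a TGF-beta signal transducer that acts on Cdkn2b, rose (Smad3 log2 fold change 0.41 ± 0.08, adjusted p = 0.00859 by edgeR). Smad3 measured 19.7, 20.1, 23.3 and 24.0 CPM in the controls and 30.4, 31.3, 26.9 and 27.3 CPM in the knockouts. Foxo4, one of the forkhead factors that act on Cdkn1b, fell from 87.6 ± 3.13 to 70.7 ± 2.58 CPM (log2 fold change -0.31 ± 0.05, adjusted p = 0.00203 by edgeR). Jun (-0.38) and Foxo1 (-0.27) also fell, and both were named after their values were seen; Jun lost its call without any of 5 libraries (Ctrl 1, 2 or 3, CNP-Cdk7cKO 2 or 4) and Foxo1 without any library but CNP-Cdk7cKO 1. Once Xist was in the model, 0 of the 13 rose by edgeR and 1 fell, Foxo4; Mycn then had an adjusted p of 0.103 (0.272 with muscle markers in the model) and Smad3 of 0.0706.

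Likeness was the Pearson correlation of log2(CPM + 0.5) over the 8 libraries, which share the same 2 groups, so it is a description. The genes most like each called member were listed. For Ccnd1 they were Sesn2 (r = 0.993), Zfp365 (0.993) and Cx3cl1 (0.992), each with a larger log2 fold change than Ccnd1 itself (1.80, 1.79 and 1.76). For Ccnd3 they were Gdf15, Psrc1 and Ephx1 (r from 0.990 to 0.993; log2 fold change 3.26, 1.80 and 1.01). For Ccnd2 they were Csmd1, Gria3 and Tob1, an antiproliferative gene (r from 0.974 to 0.980). Cdk4 was most like the actin regulator gene Cfl1, the translation factor gene Eif5a and the chaperone gene Fkbp5 (r from 0.982 to 0.993), and Cdk6 most like Ppp1r8, the spliceosome gene Eftud2 and Ttyh2 (0.983 to 0.990). For Cdkn2b they were the chaperone gene Hsp90b1, Olfml3 and C1rl (0.991 to 0.996), and for Cdkn1c Map3k5, Arhgap19 and Shtn1 (0.969 to 0.976).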

How the data were processed

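The deposited table holds estimated counts per gene, made by the authors with STAR and Salmon on GRCm38, per the submitters' processing notes; the sources used here give no settings or versions. Per the labels, 250 ng of RNA went into each stranded polyA library. Of the values 5.61% differed from a whole number by more than 0.001 (all were rounded). Symbols matched 55141 of 55487 identifiers. Replicates differed beyond counting error (chi-square per degree of freedom 3.86 to 17.6).

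Genes were filtered with filterByExpr (minimum count 10, total 15), scaled by TMM and tested with edgeR 4.0.16 (quasi-likelihood, R 4.3.3), with Benjamini-Hochberg adjustment over 15056 genes; SE is the log2 fold change divided by the square root of F. The steps were tested on simulated counts. Alternatives were RLE factors, TMM without contaminant genes, other filters, DESeq2 1.42.0, limma 3.58.1 voom, the replicate number as a block, muscle or Xist covariates, the Xist-carrying libraries alone, and each library left out.

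All members were named. From other cell cycle lists came every gene of lists up to 5 genes, else up to 3 called genes by p, or the 2 most abundant where none was called, and, for each called member, its 3 most correlated named genes. Members and lists were chosen with earlier results of these data known.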

Additional observations from a re-analysis of the deposited data

Results flagged for a closer look

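Cdkn2d measured 25.8 CPM in Ctrl 3, against 22.7 to 23.0 CPM in the other 3 controls, a gap larger than Dixon's test allows for 4 values. It was the single such value among 70 groups of 4 checked (35 genes in 2 groups), where chance flags about 1 in 20.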

How the results depend on the processing

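All 18 alternatives kept the sign of the 7 called genes. For Cdkn1b and Rb1, which were not called, the sign turned once each, with no call. The number of these 10 genes called higher was 6 under every change of scaling, filter or test tool, 4 with muscle markers fitted, 2 with Xist as a covariate, 2 in the Xist-carrying libraries and 5 to 6 with a library left out. The number called lower was 0 with muscle markers fitted, 0 with Xist as a covariate, 0 in the Xist-carrying libraries and 1 to 2 with a library left out (2 without CNP-Cdk7cKO 3, where Cdkn2c passed). Over all genes, 763 were called higher and 994 lower. These became 129 and 189 with muscle markers fitted, 73 and 160 with Xist as a covariate, and 37 and 77 in the Xist-carrying libraries, where fewer samples were fitted. With a library left out 470 to 655 were higher and 653 to 860 lower; the lowest counts came without Ctrl 2 (470 and 653), and without Ctrl 3 there were 500 and 708. With the replicate number as a block 682 were higher and 926 lower, and 6 and 1 of the 10 genes, so that pairing changed no call among them. The numbers pair nothing in the labels: same-numbered libraries correlated at 0.01 to 0.16 in their deviations, and 3 of 8 libraries correlated best with their own number. For the other 46 named genes, 112 of 827 refits lost a call and 0 reversed one. The 827 include refits of genes that had no call to lose, so the share lost among called genes is larger. Among the 10 genes, depth limits Cdkn2b most, since it has the fewest counts.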

Other observations

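Some genes, chosen after their values were seen, differed between the same knockout libraries. CNP-Cdk7cKO 1 and 2 had the higher Ccnd1 (871 and 881 CPM, against 758 and 766 CPM in CNP-Cdk7cKO 3 and 4), and the lower Cdk4 (194 and 197 against 213 and 219.9 CPM). They also had the lower Cdk2 (33.4 and 34.5 against 43.3 and 40.9 CPM), Cdkn2c (26.7 and 23.1 against 32.7 and 30.3 CPM) and Mki67 (56.6 and 47.0 against 75.6 and 71.5 CPM). Like Ccnd1, Ccnd2 (96.1 and 98.8 against 88.3 and 71.8 CPM) and Rb1 (39.5 and 37.5 against 36.5 and 29.1 CPM) were higher in CNP-Cdk7cKO 1 and 2. Ccnd3 (173, 169, 163 and 173 CPM), Cdk6 (79.6, 81.7, 84.9 and 81.3 CPM), Cdkn1b and Cdkn2b did not split in this way, and Cdkn1c was at 237, 244, 264 and 243 CPM. Summed muscle markers were 239, 531, 90.8 and 166 CPM in these 4 libraries, and summed fibroblast and perineurial markers 21560, 22834, 19753 and 20236 CPM. With 4 libraries no test was made. CNP-Cdk7cKO 4 was the lowest of all 8 libraries in Cdkn1b (200.2 CPM), Rb1 (29.1 CPM), Gsk3b (53.6 CPM) and Foxo1 (26.4 CPM). The coefficient of variation was larger in CNP-Cdk7cKO than in Ctrl for 6 of the 10 genes, and for 57.3% of all tested genes.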
